A study of Mus musculus with 12 samples.

Results

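Cortex of mice that express human P301S tau was compared with WT cortex in 6 of the 12 libraries of the study, 3 per genotype, chosen by the titles of the libraries. All genes were considered, and 15440 of the 24062 gene symbols in the count table had enough reads to be tested. P301S mice are PS19 mice, B6;C3-Tg(Prnp-MAPT*P301S), in which the Prnp promoter drives 1N4R human tau with the P301S mutation, on a normal Tia1+/+ background. WT mice had no transgene and normal Tia1. All were male and 9 months old, each mouse gave 1 library, and mice at end stage had been left out by the authors. The other 6 libraries are titled TIA1_het and P301S-TIA1_het, while their genotype entries name these genotypes the other way round, and titles were followed. These libraries had almost no reads of the Y-linked genes Ddx3y and Eif2s3y. They entered the filter on low counts, the scaling of libraries and the estimate of the spread between mice. Where a covariate was fitted, they entered its slope too. The table has no separate row for the human transgene, so its expression could not be followed here.

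Tau binds microtubules in axons, and in tauopathies it detaches, becomes phosphorylated and aggregates in neurons, which is accompanied by activation of microglia and astrocytes. Neurons fold secreted and membrane proteins in the endoplasmic reticulum (ER), where BiP (Hspa5) and its co-chaperones are induced by the unfolded protein response when folding is overloaded. Cytosolic proteins, tau among them, are handled by Hsp70 and Hsp90 and their co-chaperones. Neuronal firing itself switches on immediate early genes such as Fosb.

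The gene list with the largest shift was that of olfactory bulb markers, which were lower in P301S and differed between WT libraries. Their median log2 fold change was −4.35, or −2.37 without WT replicate 1. Apart from these, the main pattern was a lower level of chaperones and activity-induced genes and a higher level of microglial, oligodendrocyte and lysosomal genes in P301S. The microglial genes were highest in 1 mouse. With bulb genes as a covariate the median of myelin genes fell from 0.50 to 0.17, and that of lysosomal genes from 0.17 to 0.047. No single gene passed correction over all genes with edgeR's quasi-likelihood test: the number called was 0 of 15440, or 0%, with a smallest adjusted p of 0.0703. At an unadjusted p under 0.05, 1013 genes were higher in P301S (6.56% of genes tested) and 1503 were lower (9.73%), and 1629 of these 2516 differed by less than 1.5-fold. In 1505 genes (9.75%) every P301S library was above every WT library, and in 1705 (11%) every one was below. An exact 2-sided permutation test of 3 libraries against 3 has 0.10 as its smallest p, so the p of each gene rests on a spread estimated over all genes. In bulk tissue, fewer cells of a type and less RNA per cell cannot be told apart.

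One of the WT libraries stood apart. WT replicate 1 was over 4-fold from the median of the 6 libraries in 235 genes, against 0 to 13 genes in each of the other 5. It held transcripts of the olfactory bulb, which lies in front of the cortex. Omp, the marker of olfactory sensory neurons, whose axons end in the bulb, had 162, 18.9 and 4.03 CPM (counts per 1000000 counts of the library, scaled by TMM) in WT replicates 1, 2 and 3 and 0.26, 0.56 and 0.542 CPM in P301S replicates 1, 2 and 3. Doc2g, a gene of bulb projection neurons, had 273, 39.2 and 8.9 CPM in WT and 1.51, 4 and 2.17 CPM in P301S. All WT libraries were thus above all P301S libraries in both genes, with WT replicate 1 far above the rest. The 12 markers of bulb neurons summed to 1518, 288 and 119 CPM in WT and to 88, 96.1 and 76.7 CPM in P301S. In 8 of the 12 every P301S library was below every WT library, against 11% of all genes.

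The same library was low in some genes of cortical neurons, and less so or not at all in whole marker lists. Neurod6, a transcription factor of excitatory cortical neurons, had 8.32 CPM in WT replicate 1, 107 and 105 CPM in WT replicates 2 and 3, and 101, 122 and 112 CPM in P301S. Pvalb, of fast-spiking interneurons, had 8.4 CPM in WT replicate 1, 83.4 and 98.3 CPM in the other WT libraries, and 40.4, 33 and 59.1 CPM in P301S. The 20 markers of cortical layers and projection neurons summed to 989, 1376 and 1347 CPM in WT replicates 1, 2 and 3. The 16 interneuron markers summed to 1359, 901 and 885 CPM, of which Calb2, also a gene of the bulb, made up 385, 61 and 16.7 CPM. The median of each gene list below is therefore given with all 3 WT libraries and without WT replicate 1. Among the libraries outside the comparison, TIA1_het replicate 3 held striatal transcripts, with 232 CPM of the dopamine receptor Drd1a against 10.5 to 38.2 CPM in the 6 libraries compared. Bulb transcripts were also found there. Doc2g was at 189, 160 and 182 CPM in P301S-TIA1_het and at 2.28, 2.36 and 35.8 CPM in TIA1_het replicates 1 to 3. Sex-linked genes were at male levels in all 6, with Xist at 0 to 0.783 CPM. They were not in the other 6 libraries, where the Y-linked gene Ddx3y was at 0 to 0.119 CPM, against 119 to 169 CPM in those compared. The sex of those mice was not tested further.

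**Figure D1:**
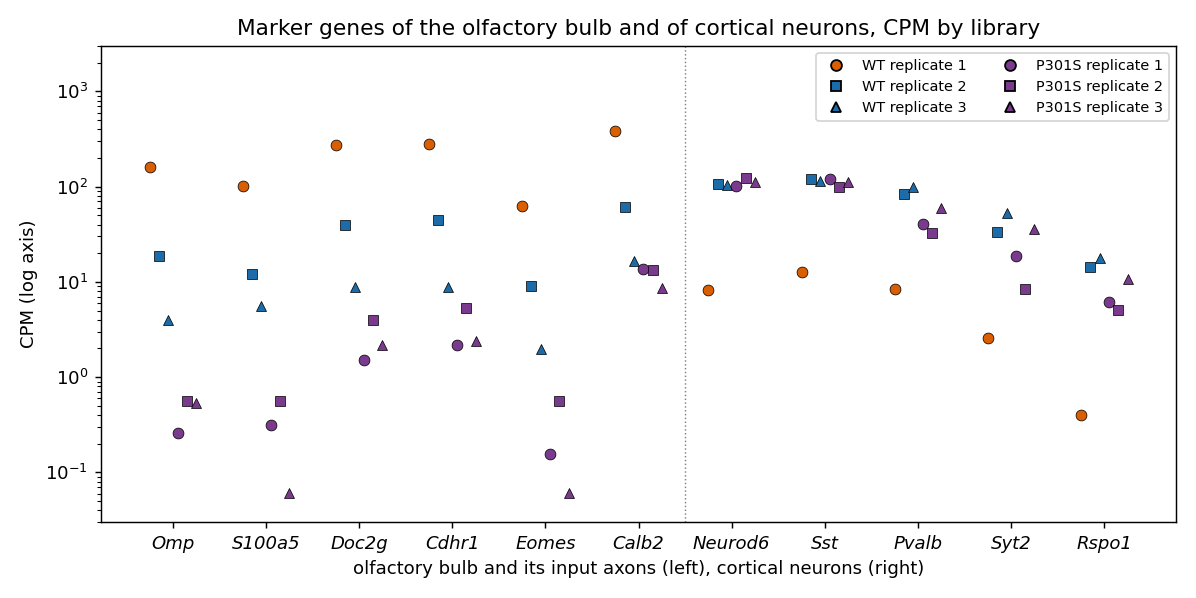
Expression of 6 genes of the olfactory bulb or its input axons (left) and 5 genes of cortical neurons (right) in each of the 6 libraries, as CPM on a log axis. Points are single libraries, with WT replicate 1 in orange, the other WT libraries in blue and P301S in purple. WT replicate 1 is the highest library in all 6 genes on the left (Omp at 162 CPM) and the lowest in all 5 on the right (Neurod6 at 8.32 CPM).

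Leaving out WT replicate 1 took away more of the lower genes than of the higher ones. Without it, 931 genes were higher (5.95%) and 847 were lower (5.41%) at an unadjusted p under 0.05, and 0 were called after correction with edgeR. Of the 2516 genes, 2515 kept their direction and 1264 kept an unadjusted p under 0.05, which was 62.1% of the higher and 42.2% of the lower genes. DESeq2's Wald test called 146 higher (0.946%) and 299 lower genes (1.94%) with all libraries at an adjusted p under 0.05. Without WT replicate 1 it called 46 higher and 60 lower genes, of which 89 were called in both fits.

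When TIA1_het replicate 3 was left out together with WT replicate 1, edgeR called 28 higher (0.18%) and 46 lower genes (0.296%) of 15560. This fit was chosen after the data had been seen, and it kept the P301S-TIA1_het libraries, which also held bulb transcripts. All 74 had the same direction with all 12 libraries, and 58 were also called by DESeq2 with all libraries. The 46 lower genes included 3 of the 8 transcripts of olfactory sensory axons and 4 of the 12 markers of bulb neurons. The latter summed to 288 and 119 CPM in WT replicates 2 and 3, against 76.7 to 96.1 CPM in P301S. A difference in bulb transcripts thus remained in this fit. The smallest adjusted p, 0.00288, was shared by B230217C12Rik and Fosl2, and the genes below are said to be called in this fit where they were.

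**Figure D2:**
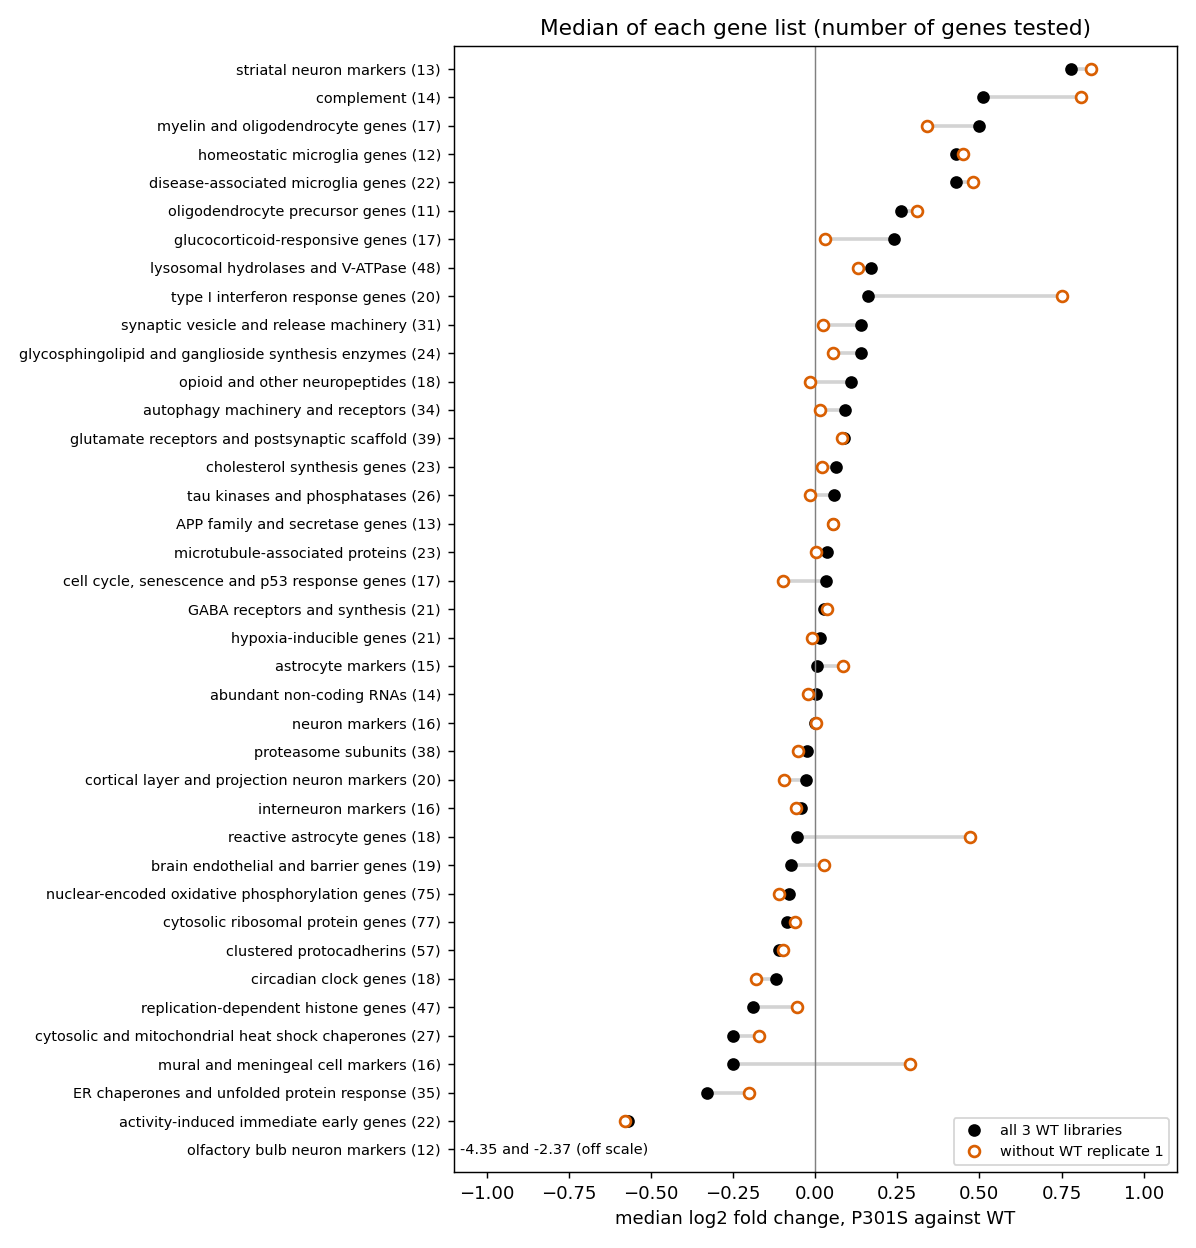
Median log2 fold change between P301S and WT of each gene list with at least 10 genes tested, with all 3 WT libraries (black) and without WT replicate 1 (open orange). ER chaperones moved from −0.33 to −0.20 and immediate early genes from −0.57 to −0.58, while interferon response genes moved from 0.16 to 0.75 and reactive astrocyte genes from −0.056 to 0.47.

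ER chaperones and other genes of the unfolded protein response were lower in P301S cortex. Of the 35 genes on the list, 29 were lower, 18 of them at an unadjusted p under 0.05 against 9.73% of all genes, and 0 were higher at that level. The P301S libraries were all below the WT libraries in 19 of the 35, against 11% of all genes, and DESeq2 called 12 lower, against 1.94%. The median log2 fold change was −0.33, where that of all genes tested was −0.0066. Without WT replicate 1, 16 were lower at an unadjusted p under 0.05 against 5.41% of all genes, with a median of −0.20. Without both WT replicate 1 and P301S replicate 1 the number was again 16, against 667 of all 15578 genes tested. When the level of the bulb genes in each library was taken as a covariate, 12 were lower and 1 was higher, against 10.3% and 10.1% of all genes, with a median of −0.18. The lower level was not particular to P301S mice. Per library, the median log2 level of the list, relative to the mean of the WT and P301S libraries, was 0.26, 0.10 and 0.058 in WT. It was −0.11, −0.21 and −0.12 in P301S, −0.18, −0.19 and −0.23 in TIA1_het, and −0.25, −0.21 and −0.26 in P301S-TIA1_het.

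The promoters of several of these genes carry the ER stress response element, through which ATF6 and XBP1 induce them. A search of the 250 bases before each RefSeq start site (GRCm38.p6) for CCAAT and CCACG with 9 bases between them, on either strand, found it in 37 of 32851 windows (0.113%). Of the tested genes that have a RefSeq promoter 0.175% held it, and so did 9 of the 30 listed ER genes, and Manf was not among the 30. The stretches around the element are shown for 6 of the 9, chosen because they were lower at an unadjusted p under 0.05, with CCAAT and CCACG, or their complements on the other strand, in capitals. They are written 5′ to 3′ on the strand of the gene.
Hspa5 (chr2:34772005-34772063, plus strand): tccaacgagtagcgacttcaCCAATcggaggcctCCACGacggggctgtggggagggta
Creld2 (chr15:88819500-88819558, plus strand): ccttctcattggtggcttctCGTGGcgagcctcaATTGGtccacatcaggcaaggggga
Dnajc3 (chr14:118937807-118937865, plus strand): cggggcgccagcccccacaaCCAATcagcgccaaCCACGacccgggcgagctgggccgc
Hsp90b1 (chr10:86705618-86705676, minus strand): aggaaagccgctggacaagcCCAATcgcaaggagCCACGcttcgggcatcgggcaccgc
Calr (chr8:84847055-84847113, minus strand): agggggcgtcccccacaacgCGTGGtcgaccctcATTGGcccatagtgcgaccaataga
Pdia6 (chr12:17266471-17266529, plus strand): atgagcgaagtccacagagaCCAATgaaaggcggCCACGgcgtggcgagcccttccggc
The element ended between 46 bases (Hspa5) and 193 bases (Hsp90b1) before the start site in these genes. Over all 20 tested genes with the element, 18 were lower, 8 of them at an unadjusted p under 0.05 against 9.73% of all genes. Their median log2 fold change was −0.34, or −0.21 without WT replicate 1. These 20 include the 9 listed genes. Of the 8, 6 are the genes shown above and the rest are Hnrnpa3 and Tdrd9, so this count is not separate from that of the list. The other 3 listed genes with the element were Canx, a lectin chaperone, with a log2 fold change of −0.068, Syvn1, a ubiquitin ligase of ER-associated degradation, with −0.10, and Derl3, of the same degradation pathway, with −0.80 and a standard error of 0.5. The Creld2 window is also the promoter of Alg12, a mannosyltransferase transcribed the other way, which had a log2 fold change of −0.041.

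Hspa5, on chromosome 2 (34771970 to 34777547 of GRCm38), encodes BiP, the main Hsp70 of the ER. It had 984, 635 and 599 CPM in WT and 409, 389 and 437 CPM in P301S replicates 1 to 3. The groups did not overlap, and WT replicate 1 was the highest library by far. On the log2 scale P301S differed from WT by −0.84 ± 0.162 (SE), with an adjusted p of 0.133 in edgeR, and by −0.57 without WT replicate 1. Hspa5 was called in the fit without both libraries at −0.58 with an adjusted p of 0.0251 from edgeR, and its adjusted p over all alternatives ran from 2.20e-06 to 0.501.

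Manf, a secreted ER protein that protects neurons and partners BiP, depended little on that library. It had 81.8, 76 and 68.7 CPM in WT and 45.5, 44.2 and 53.5 CPM in P301S, with no overlap. The log2 fold change was −0.66 ± 0.101 (SE; edgeR, adjusted p = 0.133) with all libraries and −0.59 without WT replicate 1. It too was called in the fit without both libraries, with an adjusted p of 0.0359 from edgeR, and over all alternatives its adjusted p ran from 2.13e-05 to 0.501.

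Among the other ER genes, Creld2, a disulfide isomerase, had 36.4, 20.6 and 23.4 CPM in WT and 15, 12.9 and 16.1 CPM in P301S (log2 fold change −0.87, or −0.58 without WT replicate 1). Dnajb11, an ER co-chaperone of the DnaJ family, had 110, 88.6 and 82.6 CPM in WT and 66.6, 57 and 68.4 CPM in P301S (−0.55, or −0.41). Neither overlapped between the groups. Dnajc3, known as an inhibitor of the kinase PERK, had 163, 140 and 131 CPM in WT and 101, 99.6 and 122 CPM in P301S (−0.43, or −0.32). The abundant ER chaperones differed less: Hsp90b1 was at 778, 648 and 584 CPM in WT and at 537, 527 and 531 CPM in P301S (−0.33, or −0.20), and Calr at 533, 433 and 385 against 370, 340 and 350 CPM (−0.35, or −0.20). Xbp1, the transcription factor of one arm of the response, was chosen after its values were seen and had 196, 165 and 161 CPM in WT and 124, 92.9 and 130 CPM in P301S (−0.59, or −0.49).

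Heat shock chaperones of the cytosol and mitochondria were lower as well. Of 27 genes, 22 were lower, 16 at an unadjusted p under 0.05 (9.73% of all genes) and 0 higher. All P301S libraries were below all WT libraries in 14 of them (11% of all genes), and DESeq2 called 7 lower (1.94%). Their median log2 fold change was −0.25, and −0.17 without WT replicate 1, when 10 were lower at an unadjusted p under 0.05 against 5.41% of all genes. Without P301S replicate 1, 11 were, against 6.5% of all genes. With the bulb genes as covariate, 9 were lower and 1 was higher at that level, against 10.3% and 10.1% of all genes. This list too was lower in the other genotypes. Its level per library was 0.25, 0.12 and 0.072 in WT and −0.085, −0.16 and −0.086 in P301S. It was −0.22, −0.17 and −0.24 in TIA1_het, and −0.20, −0.18 and −0.25 in P301S-TIA1_het. Hspa1a and Hspa1b, the inducible Hsp70 genes, lie side by side on chromosome 17 and are nearly identical, so reads may be split between them. Hspa1a had 30.6, 21.7 and 23.7 CPM in WT and 13.3, 11.1 and 12.8 CPM in P301S, a log2 fold change of −1.03 (−0.86 without WT replicate 1), and Hspa1b had 35.9, 17.3 and 26.2 against 12, 11.4 and 13.9 CPM (−1.09, or −0.80).

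Neither gene overlapped between the groups, and Hspa1a was called in the fit without both libraries (adjusted p = 0.0377 from edgeR, and 0.000846 to 0.501 over all alternatives). Dnajb5, a cytosolic DnaJ protein, had 190, 126 and 143 CPM in WT and 80.5, 74.4 and 103 CPM in P301S (−0.82, or −0.63). Chordc1, a co-chaperone of Hsp90, had 126, 130 and 111 against 92.4, 86.1 and 93.8 CPM (−0.43, or −0.40). A heat shock element, GAA, TTC and GAA or TTC, GAA and TTC with 2 bases between them on either strand, was found before the start site of 2 of the 20 listed genes with a RefSeq promoter, Hspd1 and Hspe1, against 0.49% of all tested genes with one and 0.466% of all windows.

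**Figure D3:**
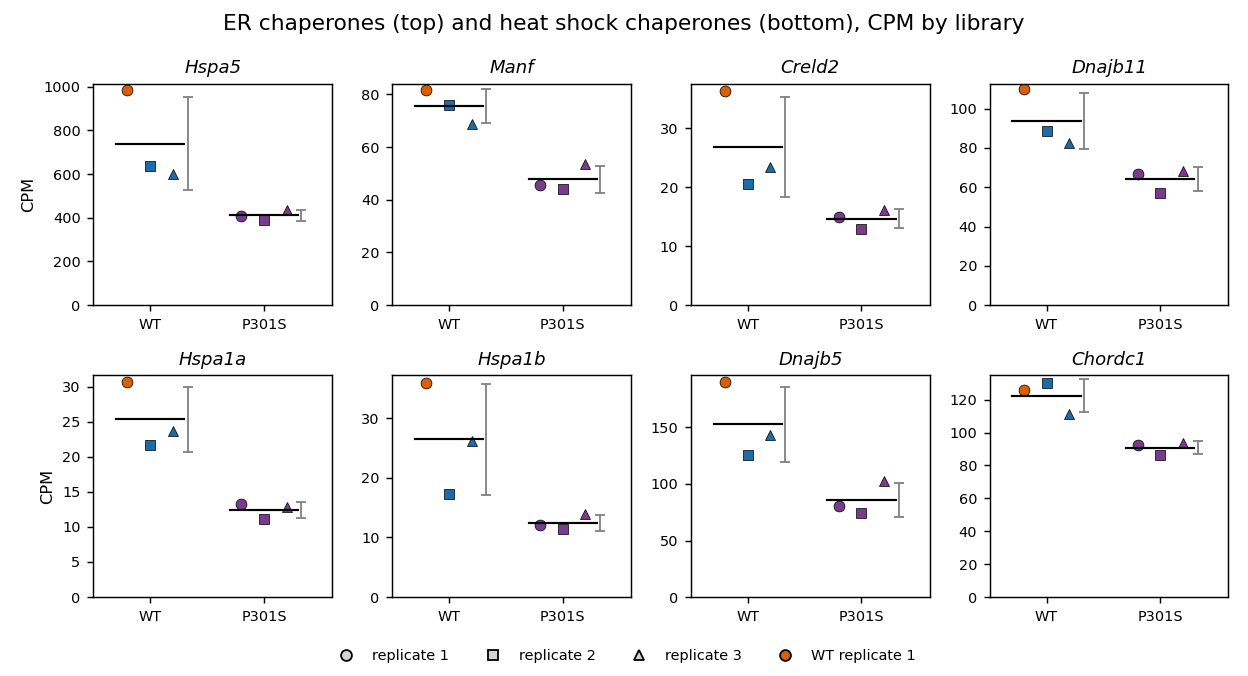
CPM of 4 ER chaperone genes (top) and 4 heat shock chaperone genes (bottom) in each library on axes that start at 0. Points are libraries (WT replicate 1 in orange), lines are group means and grey bars are the SD over 3 libraries. All P301S libraries lie below all WT libraries in each of the 8 genes, and WT replicate 1 is the highest library in 7 of them, Chordc1 being the exception.

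Genes that neuronal activity induces were lower in P301S cortex, and as many of them passed without WT replicate 1. Of 22 immediate early genes, 19 were lower, 8 at an unadjusted p under 0.05 and 0 higher, and 9 did not overlap, where 9.73% and 11% of all genes were lower in these ways. The median was −0.57 with all libraries and −0.58 without WT replicate 1, when again 8 were lower at an unadjusted p under 0.05, against 5.41% of all genes. It was −0.26 without P301S replicate 1, the library with the lowest sum of these genes (992 CPM, against 1603 and 1856 CPM in the other P301S and 2322 to 2496 CPM in the WT libraries). With the bulb genes as covariate, 9 were lower against 10.3% of all genes, and the median was −0.71. Fosl2, a Fos family transcription factor on chromosome 5 (32135801 to 32157842), had 201, 92.6 and 80 CPM in WT and 45.1, 39.9 and 45.7 CPM in P301S. Its log2 fold change was −1.52 ± 0.286 (SE; edgeR, adjusted p = 0.133), and −0.98 without WT replicate 1 (adjusted p = 0.0721). Without both libraries it was called, with an adjusted p of 0.00288 from edgeR, and the range over all alternatives was 6.79e-08 to 0.501.

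Fosb had 85.6, 34 and 24.1 CPM in WT and 11.1, 16.8 and 15.5 CPM in P301S (−1.73, or −1.0 without WT replicate 1). Nptx2, a secreted pentraxin that gathers glutamate receptors at synapses, had 269, 105 and 90.6 against 49.9, 41.2 and 73.2 CPM (−1.50, or −0.83). Homer1, a postsynaptic scaffold with an activity-induced short form, had 611, 743 and 612 against 346, 339 and 537 CPM (−0.69, or −0.73). The groups did not overlap in any of the 3, and only in Homer1 was the fold change no smaller without WT replicate 1. The palindrome TGACGTCA, the site of CREB, was found before 2 of the 16 genes of this list with a RefSeq promoter (Btg2 and Dusp1), against 2.96% of all tested genes with one and 1.55% of all windows. Over all 338 tested genes with the palindrome, 152 were higher and 186 lower. At an unadjusted p under 0.05, 17 were higher and 49 lower, against 6.56% and 9.73% of all genes. Their median log2 fold change was −0.03, or −0.051 without WT replicate 1.

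Of 18 circadian clock genes, 12 were lower, 5 at an unadjusted p under 0.05 (9.73% of all genes) and 0 higher, with a median of −0.12. With WT replicate 1 left out, 4 were lower at that level (5.41%) and the median was −0.18, and without P301S replicate 1, 3 were (6.5%) and the median was −0.048. In the fit without both libraries 4 were called lower (0.296% of all genes): Cry1, Nfil3, Per2 and Rorb. Rorb is also on the list of cortical layer markers. Its log2 fold change was −0.60 in that fit and −0.27 with all libraries (edgeR, unadjusted p = 0.48). Cry1, a repressor of the clock, had 68.2, 42 and 36 CPM in WT and 25.8, 20.2 and 25.9 CPM in P301S (log2 fold change −1.02, or −0.69 without WT replicate 1). Per2, its partner, had 53.9, 60.7 and 58.8 against 31.5, 31.9 and 44 CPM (−0.69, or −0.73). Nfil3, a repressor of clock output genes, had 47.8, 21 and 18.3 against 11.6, 10.4 and 11.8 CPM (−1.36, or −0.79). None of the 3 overlapped between the groups. The time of day at which the mice were killed is not given in the sources used here.

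The values of neuronal lists changed with the fit. Of 31 synaptic vesicle genes, 23 were higher, with 1 higher and 1 lower at an unadjusted p under 0.05 (6.56% and 9.73% of all genes). The median was 0.14, and 0.023 without WT replicate 1. With the bulb genes as covariate the median was −0.28, and 9 were lower and 1 higher at that level, against 10.3% and 10.1% of all genes. The 16 neuron markers had a median of −0.0002, or 0.0014 without WT replicate 1, and −0.26 with the covariate, when 5 were lower. Glutamate receptors and their scaffold had a median of 0.087, or 0.081 without WT replicate 1, and 0.08 with the covariate. Nefm, a neurofilament of large axons, stood out once that library was left out. It had 54.7, 115 and 148 CPM in WT and 55.8, 57.2 and 73.2 CPM in P301S, so WT replicate 1 lay with the P301S libraries. Its log2 fold change was −0.77 with all libraries (adjusted p = 0.221 from edgeR) and −1.08 without WT replicate 1 (adjusted p = 0.0721), and it was called without both libraries (adjusted p = 0.0124, and 6.79e-08 to 0.531 over all alternatives). Pvalb went the same way, from −0.52 to −1.03, and was called without both libraries (adjusted p = 0.0428 from edgeR, and 0.0194 to 0.981 over all alternatives). B230217C12Rik, an uncharacterised gene on chromosome 11, had 41.1, 64.5 and 78.6 CPM in WT and 30.9, 31.2 and 33.2 CPM in P301S (−0.95, or −1.16).

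**Figure D4:**
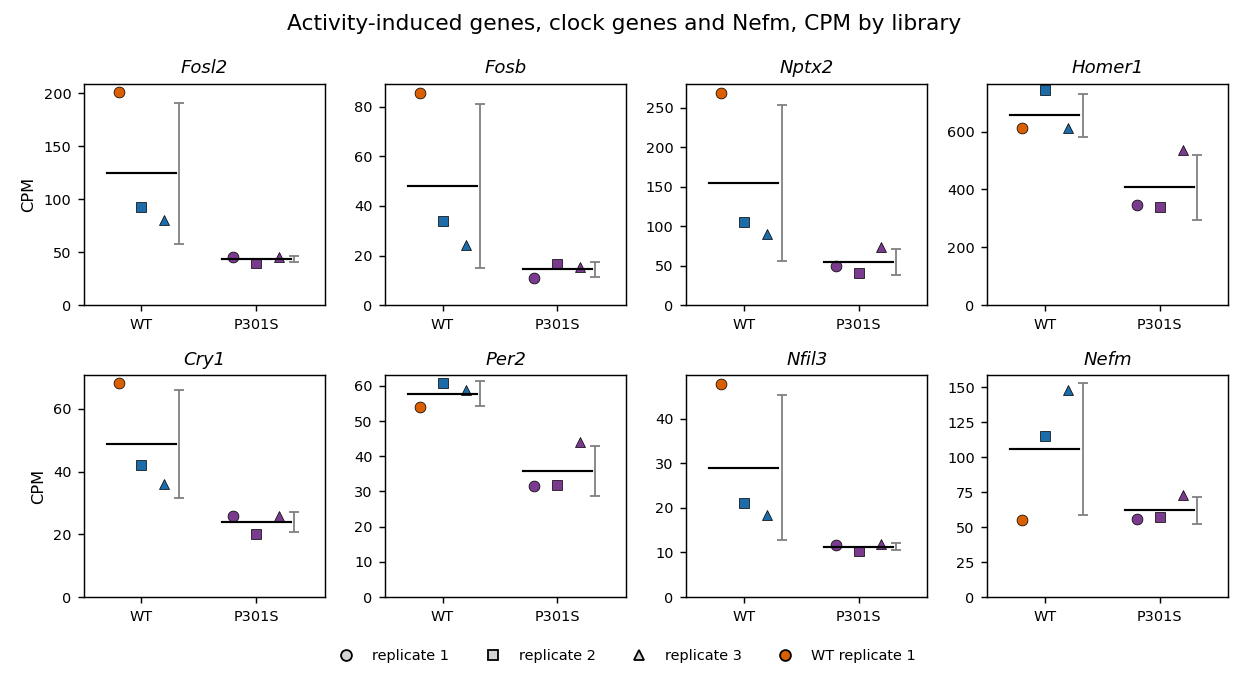
CPM of 4 activity-induced genes (top), 3 clock genes and Nefm (bottom) in each library on axes that start at 0, with group means (lines) and the SD over 3 libraries (grey bars). WT replicate 1, in orange, is the highest library in Fosl2, Fosb, Nptx2, Cry1 and Nfil3, and the lowest in Nefm, at 54.7 CPM.

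Microglial genes were higher in P301S cortex, most of all in 1 mouse. Of 12 genes of resting microglia, 10 were higher, 7 at an unadjusted p under 0.05 against 6.56% of all genes, and 8 did not overlap, against 9.75%. At that level 1 was lower, against 9.73% of all genes. The median log2 fold change was 0.43, and 0.45 without WT replicate 1. Without P301S replicate 1, the library with the highest sum of these genes (535 CPM, against 438 and 375 CPM), 2 were higher at an unadjusted p under 0.05 (4.78% of all genes) and the median was 0.27. With the bulb genes as covariate, 9 were higher (10.1% of all genes) and the median was 0.63. Csf1r, the receptor that keeps microglia alive, had 65.8, 56.9 and 71.1 CPM in WT and 106, 92.1 and 75.4 CPM in P301S (0.50, or 0.52 without WT replicate 1 and 0.38 without P301S replicate 1). Cx3cr1, the fractalkine receptor, had 39.5, 33 and 36.4 against 66.1, 57.4 and 43.8 CPM (0.62, or 0.69 and 0.48).

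Neither gene overlapped between the groups, and P301S replicate 3 was the closest to WT in both. Genes of the disease-associated state were less even. Of 22, 18 were higher, 9 at an unadjusted p under 0.05 against 6.56% of all genes, with a median of 0.43, while 3 did not overlap, against 9.75%. When WT replicate 1 was left out, 10 were higher at that level (5.95% of all genes) and the median was 0.48. Without P301S replicate 1, 2 were higher and 1 lower (4.78% and 6.5% of all genes), and the median was 0.21. Clec7a, a pattern recognition receptor, had 0.72, 0.254 and 0.076 CPM in WT and 11.8, 1.6 and 0.482 CPM in P301S, so P301S replicate 3 lay within the WT range. Itgax, which encodes CD11c, had 0.8, 0.169 and 0.228 against 14.5, 2.16 and 0.422 CPM. Trem2, the receptor that microglia need to enter this state, had 8.4, 6.09 and 8.06 against 25.2, 11.6 and 7.95 CPM. In all 3, P301S replicate 1 was at least 2-fold above every other library and replicate 3 was not above WT replicate 1. Their log2 fold changes were 3.72, 3.82 and 0.99 with all libraries, 4.81, 4.80 and 1.09 without WT replicate 1, and 1.53, 1.64 and 0.38 without P301S replicate 1.

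Complement genes moved with the same P301S library. Of 14, 11 were higher, 5 at an unadjusted p under 0.05 against 6.56% of all genes, and the median was 0.51. Without WT replicate 1, 7 were higher at that level (5.95% of all genes) and the median was 0.81. Without P301S replicate 1, 1 was (4.78% of all genes) and the median was 0.24. C1qb, a chain of the complement starter C1q that microglia make, had 25.9, 25.4 and 26.7 CPM in WT and 79.3, 39.6 and 28.3 CPM in P301S (log2 fold change 0.92, or 0.93 without WT replicate 1 and 0.39 without P301S replicate 1). C3 was low, at 0.56, 0.254 and 0.38 against 1.14, 1.44 and 0.783 CPM (1.46, or 1.78 without WT replicate 1 and 1.45 without P301S replicate 1). The groups overlapped in neither gene.

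The values of interferon and reactive astrocyte genes depended on WT replicate 1 and P301S replicate 1. Of 20 interferon response genes, 0 were higher at an unadjusted p under 0.05 with all libraries (6.56% of all genes). Without WT replicate 1, 3 were (5.95%), and the median moved from 0.16 to 0.75. It was −0.33 without P301S replicate 1. Of 18 reactive astrocyte genes, 9 were higher and 9 lower, with 0 higher and 3 lower at an unadjusted p under 0.05 (6.56% and 9.73% of all genes). Without WT replicate 1, 15 were higher, 5 of them at that level (5.95% of all genes), and the median moved from −0.056 to 0.47. Without P301S replicate 1, 0 were higher and 1 lower at that level (4.78% and 6.5% of all genes), and the median was −0.25. Gfap, the intermediate filament of reactive astrocytes, named here after its values were seen, had 249, 73.4 and 64.4 CPM in WT and 569, 173 and 142 CPM in P301S. Its log2 fold change was 1.19 ± 0.591 (SE; edgeR, adjusted p = 0.34), 2.11 without WT replicate 1 (adjusted p = 0.274) and 0.30 without P301S replicate 1 (adjusted p = 0.823). The general astrocyte markers had a median of 0.0061, and 0.085 without WT replicate 1.

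**Figure D5:**
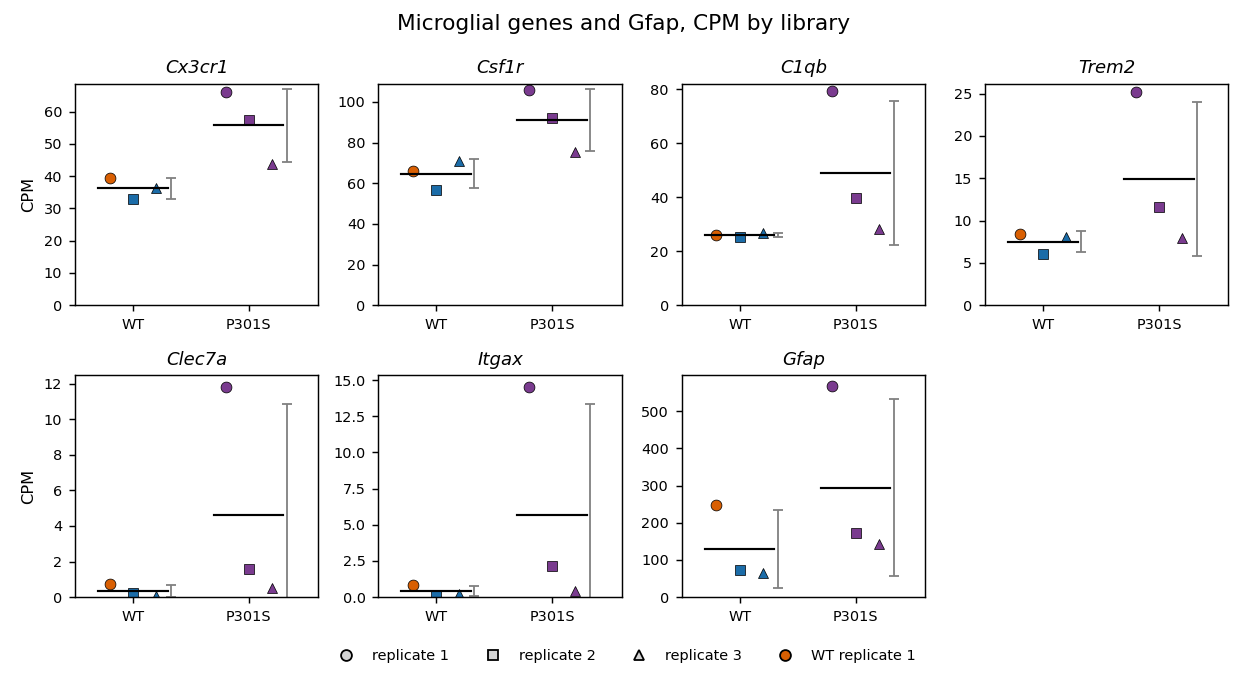
CPM of 6 microglial genes and Gfap in each library on axes that start at 0, with group means (lines) and the SD over 3 libraries (grey bars, which run below the axis for Clec7a and Itgax). P301S replicate 1 is the highest library in all 7 genes, and WT replicate 1 (orange) is above P301S replicates 2 and 3 in Gfap only.

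Oligodendrocyte genes were higher in P301S cortex. All 17 myelin and oligodendrocyte genes tested were higher, 8 at an unadjusted p under 0.05 against 6.56% of all genes, 4 did not overlap, against 9.75%, and the median was 0.50. Without WT replicate 1, which had the lowest sum of these genes (2306 CPM, against 3062 to 5104 CPM), 16 were higher, 4 at an unadjusted p under 0.05 (5.95% of all genes), and the median was 0.34. With the bulb genes as covariate, 0 were higher at that level, and the median was 0.17. The level of this list per library was −0.71, 0.05 and −0.16 in WT and −0.069, 0.15 and 0.54 in P301S. It was 0.78, 0.46 and 0.47 in TIA1_het, and 0.024, 0.011 and 0.099 in P301S-TIA1_het. The higher level was thus not particular to P301S mice. Mog, a surface protein of myelin, had 13, 27.9 and 23.3 CPM in WT and 30.7, 36.8 and 39.9 CPM in P301S (log2 fold change 0.74, or 0.49 without WT replicate 1). Cnp, an enzyme of myelin sheaths, had 117, 167 and 160 against 187, 204 and 258 CPM (0.55, or 0.42). Of 11 genes of oligodendrocyte precursors, 9 were higher, 4 at an unadjusted p under 0.05 with or without WT replicate 1 (6.56% and 5.95% of all genes).

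Their median was 0.26, and 0.31 without that library. Per library, their level was −0.10, −0.24 and −0.22 in WT and 0.14, 0.20 and 0.094 in P301S. It was 0.10, 0.077 and 0.41 in TIA1_het, and 0.064, 0.22 and 0.23 in P301S-TIA1_het, so it was above WT in those genotypes too. Pdgfra, the growth factor receptor of the precursors, had 51.5, 61.2 and 59.3 CPM in WT and 95.6, 82.5 and 73.8 CPM in P301S (0.55, or 0.49). Neu4, a sialidase, had 5.52, 5.33 and 6.01 against 8.83, 9.85 and 8.31 CPM (0.68, or 0.67). DESeq2 called both with all libraries, with adjusted p of 0.0217 and 0.0174.

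Lysosomal genes were higher by small steps. Of 48 hydrolase and V-ATPase genes, 43 were higher, 13 at an unadjusted p under 0.05 (6.56% of all genes) and 1 lower, and the median was 0.17. All P301S libraries were above all WT libraries in 16 (9.75% of all genes). Without WT replicate 1, 10 were higher at an unadjusted p under 0.05 (5.95%) and the median was 0.13, and without P301S replicate 1, 4 were (4.78%) and the median was 0.14. With the bulb genes as covariate, 7 were higher and 4 lower (10.1% and 10.3% of all genes), and the median was 0.047. The level of this list per library was −0.23, −0.084 and 0.00044 in WT and 0.14, 0.032 and 0.054 in P301S. It was 0.084, 0.13 and −0.094 in TIA1_het, and 0.045, 0.08 and 0.035 in P301S-TIA1_het. Gaa, which breaks down lysosomal glycogen, had 115, 157 and 148 CPM in WT and 226, 229 and 182 CPM in P301S (0.60, or 0.49 without WT replicate 1), and DESeq2 called it with an adjusted p of 0.0177. Man2b1, a mannosidase, had 21.5, 28.8 and 32.3 against 48.8, 37.9 and 32.3 CPM (0.53, or 0.39). Gaa did not overlap between the groups, whereas Man2b1 was equal in P301S replicate 3 and WT replicate 3. Of 34 autophagy genes, 3 were higher and 2 lower at an unadjusted p under 0.05 (6.56% and 9.73% of all genes), and the median was 0.091. These were 1, 2 and 0.016 without WT replicate 1, when 5.95% of all genes were higher and 5.41% lower.

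Among the higher genes with the smallest p, several were on none of the lists. Tppp3, a tubulin-binding protein, had 9.28, 15.5 and 13.9 CPM in WT and 22.8, 30.9 and 38.2 CPM in P301S (log2 fold change 1.25, or 1.06 to 1.43 with 1 library left out). Arhgef28, an activator of RhoA that also binds RNA, had 23.1, 24.4 and 24.5 against 48.7, 64.8 and 40.2 CPM (1.09, or 0.90 to 1.25). Tenm1, a teneurin of neuronal surfaces, had 44.5, 62.8 and 51.7 against 106, 107 and 82.9 CPM (0.90, or 0.80 to 1.04). The groups did not overlap in any of the 3, and each was called in the fit without both libraries, with adjusted p of 0.0448, 0.0377 and 0.0282 from edgeR, and their highest adjusted p over all alternatives was 0.501. Cdk18, a kinase of the cyclin-dependent family, had 6.48, 8.63 and 7.98 against 14.9, 21.5 and 14.5 CPM (1.14, or 1.03 without WT replicate 1). Fxyd6, a regulator of the sodium pump, had 60.9, 65.5 and 54 against 133, 134 and 81.8 CPM (0.95, or 0.97), and Slc7a4, a transporter-like membrane protein, had 29.1, 46 and 49.3 against 71.6, 74 and 66.5 CPM (0.77, or 0.58). All 3 were called without both libraries. The remaining higher genes of this kind were F630042J09Rik, Chid1, Gm8615, 6330403A02Rik, Pdlim2, Ypel1 and Gstz1, with log2 fold changes between 0.45 and 2.52. Of these, F630042J09Rik, Chid1, Gm8615, 6330403A02Rik and Ypel1 were called without both libraries.

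Among the lower genes with the smallest p, Pcdhga5, one of the clustered protocadherins that share exons and may share reads, had 6.96, 4.82 and 6.01 CPM in WT and 2.49, 2.64 and 2.29 CPM in P301S (log2 fold change −1.26, or −1.12 without WT replicate 1). Of 57 clustered protocadherins, 8 were lower (9.73% of all genes) and 0 higher at an unadjusted p under 0.05, and the median was −0.11. With WT replicate 1 left out, 5 were lower at that level (5.41%) and the median was −0.098, and without P301S replicate 1, 5 were (6.5%) and the median was −0.12. Kcnab3, a potassium channel subunit, had 70.8, 66.1 and 78.9 against 30.4, 19 and 39.7 CPM, and its log2 fold change was −1.27 with and without WT replicate 1. Bcor, a transcriptional corepressor, had 88.8, 49.2 and 48.4 against 24.2, 21.6 and 32.8 CPM (−1.24, or −0.89). These 3 did not overlap between the groups and were called in the fit without both libraries. P4ha1, a collagen hydroxylase of the ER, had 118, 118 and 120 against 79.9, 90.6 and 91.1 CPM (−0.44 with and without WT replicate 1), and Ccnf, a cyclin that directs ubiquitination, had 21.9, 13.3 and 11.9 against 6.08, 6 and 7.47 CPM (−1.27, or −0.94). P4ha1 and Ccnf were called in that fit too, with adjusted p of 0.0428 and 0.0448 from edgeR. The others were Med7, Ptar1, S100a5, Kdm7a and Ints8, beside Manf and Fosl2 described above, and of these S100a5, with 102, 12.2 and 5.63 CPM in WT and at most 0.56 CPM in P301S, is a gene of olfactory sensory axons. Ptar1, S100a5 and Kdm7a were also called in that fit.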

How the data were processed

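Total RNA from the cortex of 12 mice was sequenced as paired reads from stranded total RNA libraries. Per the submitters' processing notes, the authors used TopHat2 (2.0.6) with mm10 for alignment, counted reads per gene with featureCounts, and deposited raw counts for 24062 gene symbols. The annotation and the strand setting are not given in the sources used here, so overlapping and antisense genes may share reads. Library totals were 11978962 to 13587922 counts in WT and 13058003 to 19146484 in P301S.

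Counts of all 12 libraries were fitted with a mean per group (edgeR 4.0.16, R 4.3.3; TMM, filterByExpr, quasi-likelihood test), with Benjamini-Hochberg adjustment over the 15440 genes kept. CPM are counts per 1000000 counts of the TMM-scaled library. Mice are assumed to be the replicates, and p values cover the spread between libraries only. Alternatives were DESeq2 1.42.0, limma 3.58.1 (voom with sample weights), other filters and scaling, the 6 libraries alone, each library left out, the replicate number as a block, and the level of olfactory bulb genes (log2 of CPM plus 1) as a covariate. The scripts were tested on simulated data. The 46 gene lists and the comparison were chosen with earlier results of these data known. Genes named are the 12 with the smallest p in each direction whose groups do not overlap and reach 1 CPM, the 4 with the smallest p in each list (all of a list of 8 or fewer), the genotype and sex genes, the genes most unlike in WT replicate 1 (10 each way), the 5 with the smallest p in each direction without it, and up to 3 per alternative with calls. ER genes with the promoter element were named for the element. Positions are from GENCODE M21, promoters from RefSeq, both on GRCm38. Titles and genotype entries of the WT and P301S libraries name the same genotype. Those of the TIA1_het and P301S-TIA1_het libraries name each other's genotype, so which of these names holds is not settled here. The values of 2 named genes are not reported here.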

Additional observations from a re-analysis of the deposited data

How the results depend on the processing

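edgeR called 0 genes with DESeq2 size factors, without a filter on low counts, with at least 10 counts required in each of the 6 libraries, with the 6 libraries alone, and without WT replicate 1 in a fit of 5 libraries. Calls numbered 445 with DESeq2's Wald test, 100 with DESeq2 on 6 libraries, 106 with DESeq2 without WT replicate 1, 78 with limma voom and sample weights (WT replicate 1 had the lowest weight, 0.1638), and 228 with the bulb covariate. Of the 2 fits added after the data were seen, leaving out WT replicate 1 and TIA1_het replicate 3 gave 74 calls, and leaving out WT replicate 1 and P301S replicate 1 gave 0. With 1 of the 6 libraries left out, the calls ranged from 0 to 1, the 1 being Fxyd6 without P301S replicate 3. Genes with an unadjusted p under 0.05 numbered 2516, and 1577 with the 6 libraries alone, 1625 with DESeq2 on them, 1613 with DESeq2 without WT replicate 1 and 1283 without WT replicate 1 and P301S replicate 1. With 1 of the 6 left out they ranged from 1488 (P301S replicate 2) to 3494 (WT replicate 3). With the replicate block, 2155 genes had an unadjusted p under 0.05 and 0 were called, and 1428 with the block on 6 libraries. Residuals of same-numbered P301S and WT libraries correlated at 0.119, −0.078 and 0.213, so the numbers were not taken as pairs. With the bulb covariate the medians were −0.18 for ER chaperones, −0.34 for clock genes, 0.63 for resting microglia, 1.12 for complement, 1.37 for interferon, 1.0 for reactive astrocytes, 0.53 for oligodendrocyte precursors and 0.047 for lysosomal genes. Without WT replicate 1, the fit of 5 libraries gave −0.20 for ER chaperones, −0.17 for heat shock chaperones and 0.84 for complement, and DESeq2 gave −0.22 and −0.18 for the chaperone lists. Leaving out TIA1_het replicate 3 too gave −0.21 and −0.17, and leaving out P301S replicate 1 instead gave −0.24 for ER chaperones and 0.35 for precursors, which limma put at 0.32. With 1 of the 6 libraries left out, medians ranged from −0.34 to −0.20 for ER chaperones, −0.29 to −0.17 for heat shock chaperones, 0.24 to 0.38 for precursors, −0.65 to −0.26 for immediate early genes and −0.33 to 0.75 for interferon genes. The sign of a list median was the other one for 11 of 46 lists without WT replicate 1 and for 17 with the bulb covariate. That covariate turned 10 of the 148 named genes with an unadjusted p under 0.05, and Ano2, at −0.0025 with all libraries, to 3.63. Within groups, the centred bulb level varied most in WT (2.403, 0.2878 and −0.8892) and in TIA1_het (−1.56, −1.487 and 0.1105). TIA1_het replicate 3 also held striatal transcripts, so the covariate may mix bulb with striatal content. The median of striatal markers was 0.78, and 2.52 with the covariate. The cause of these shifts was not tested. At 11978962 to 19146484 counts per library, a gene at 0.5 CPM rests on few counts, so bulb and microglial genes near 0 in 1 group have imprecise fold changes.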

Other observations

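Genes of energy metabolism and translation had medians slightly below that of all genes tested. Of 75 nuclear-encoded genes of oxidative phosphorylation, 57 were lower, 8 at an unadjusted p under 0.05 against 9.73% of all genes and 0 higher, and without WT replicate 1 the numbers were 65 and 13, against 5.41%. The median log2 fold change was −0.08, and −0.11 without that library. Of 77 cytosolic ribosomal protein genes, 61 were lower, with a median of −0.086, or −0.062 without WT replicate 1. At an unadjusted p under 0.05, 6 were lower, a share below the 9.73% of all genes, and 0 higher. Replication-dependent histone genes, whose RNA mostly lacks a poly(A) tail, had a median of −0.19 over 47 genes, and −0.056 without WT replicate 1. Proteasome subunits had a median of −0.024, cholesterol synthesis genes 0.063 and tau kinases and phosphatases 0.057, and −0.053, 0.022 and −0.015 without WT replicate 1.

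Mapt encodes the tau of the mouse itself, and was at 256, 369 and 413 CPM in WT and 439, 462 and 457 CPM in P301S, with no overlap. The difference on the log2 scale was 0.39 ± 0.169 (SE; edgeR, adjusted p = 0.291), and 0.22 without WT replicate 1. Prnp, whose promoter drives the transgene, had 1334, 1879 and 1700 against 2124, 2018 and 2158 CPM (0.36, or 0.24), also with no overlap. Whether reads of the human transgene were counted in either was not tested. Striatal markers had a median of 0.78 over 13 genes (0.84 without WT replicate 1), and 1 was higher at an unadjusted p under 0.05 (6.56% of all genes). This was Gpr6, a receptor of striatal neurons, with 0.32, 0.508 and 0.38 CPM in WT and 1.82, 5.12 and 3.01 CPM in P301S. Thbs4, a thrombospondin, had 0.8, 1.61 and 1.83 against 7.64, 4.88 and 8.31 CPM, a log2 fold change of 2.30 (2.02 without WT replicate 1), and was called without WT replicate 1 and TIA1_het replicate 3 (adjusted p = 0.049 from edgeR).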
